A study of Caenorhabditis elegans with 2 samples.

Results

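MicroRNA genes were examined for peaks of the Caenorhabditis elegans transcription factor HLH-12, a basic helix-loop-helix protein that distal tip cells need to lead the growth of the gonad. They were all 261 nuclear genes that the Ensembl 115 annotation of WBcel235 calls miRNA, of 46890 nuclear genes in all. The rule itself used the annotation alone. The data were lists of peaks from chromatin immunoprecipitation followed by sequencing (ChIP-seq), which finds the stretches of DNA that a protein occupies. All samples formed 1 group of 2 biological replicates, whole hermaphrodite young adults of strain OP538 (unc-119(tm4063) III; wgIs538), collected 64 hours after starved L1 larvae were synchronized. Both replicates carry the unc-119 allele and the same transgene, a single line that makes HLH-12 with a GFP-FLAG tag at its C-terminal end. Chromatin was sheared by sonication and precipitated with an antibody against GFP. The peaks are those of the tagged protein, and no library from animals without it was analysed here. Which cells of the animal gave a peak cannot be read from whole worms.

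MicroRNAs are short RNAs cut from a hairpin in a longer transcript. They lower the output of messenger RNAs that pair with their seed, the bases near the 5′ end of the mature RNA, and members of a family share that seed. Some microRNA genes have a promoter of their own, some lie in an intron of a protein-coding gene, and some share a transcript as a cluster.

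A gene was counted as found at the gene when the summit of a peak, its highest point, lay within 200 bp of the annotated gene. It was counted separately as found upstream when a summit lay within 1000 bp before its 5′ end. The lists were a relaxed one per replicate and 1 made from the replicates combined, the pooled list. The relaxed lists hold peaks and background, made as input for a stricter list, per the file listings. On the nuclear chromosomes they held 19782 peaks in replicate 1, 22556 in replicate 2 and 6661 in the pooled list. Signal is the value the authors' peak caller gave each peak, with a median over all peaks of 15.4, 13.0 and 30.6 in that order, and it is compared only within a list. Read depth is unknown. Positions are ce11 and count from 1. A ± is the SD of the 2 replicate signals (n = 2), each the strongest in the window, and the 2 summits can differ in position.

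The mature sequences below are those of the families in which the results were concentrated, read from the RefSeq annotation and genome of the same assembly, with the seed (bases 2 to 8) in capitals. All 6 members of the mir-51 family carry the seed ACCCGUA, on the 5p arm of the hairpin in mir-51, mir-52 and mir-53 and on the 3p arm in mir-54, mir-55 and mir-56. This family belongs to the widely conserved miR-100 group and is needed for embryonic development.
mir-51 5p: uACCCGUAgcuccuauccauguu
mir-52 5p: cACCCGUAcauauguuuccgugcu
mir-53 5p: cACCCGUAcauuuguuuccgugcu
mir-54 3p: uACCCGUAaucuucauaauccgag
mir-55 3p: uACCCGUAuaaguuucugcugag
mir-56 3p: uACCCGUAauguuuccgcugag

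The mir-35 family, also needed in the embryo, has 8 members with the 3p seed CACCGGG. The 4 members found at the gene in all 3 lists are shown, followed by mir-58.1, of the bantam-related mir-58 family, and lin-4, the founding microRNA, which times larval development by repressing lin-14.
mir-39 3p: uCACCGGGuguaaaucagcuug
mir-40 3p: uCACCGGGuguacaucagcuaa
mir-41 3p: uCACCGGGugaaaaaucaccua
mir-42 3p: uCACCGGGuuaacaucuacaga
mir-58.1 3p: uGAGAUCGuucaguacggcaau
lin-4 5p: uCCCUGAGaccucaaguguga

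The 101 bases centred on the pooled summit are shown for the strongest sites and for lin-4, all on the plus strand, with E-boxes (CANNTG) in capitals. The E-box is the known binding sequence of the basic helix-loop-helix family. The mir-52 window, chrIV:14034007-14034107, holds CATATG inside the hairpin, in the bases that make the mature arm. The window shared by mir-39, mir-40 and mir-41, chrII:11538097-11538197, holds CAGCTG, and that of mir-77, chrII:12519258-12519358, holds CATCTG. The windows of mir-51 (chrIV:11026153-11026253), mir-4936 (chrIII:3249158-3249258), mir-58.1 (chrIV:3233242-3233342) and lin-4 (chrII:5901732-5901832) hold no CANNTG. The mir-8196.1 window, chrX:2329172-2329272, holds CATGTG, which reads CACATG on the other strand.
mir-51: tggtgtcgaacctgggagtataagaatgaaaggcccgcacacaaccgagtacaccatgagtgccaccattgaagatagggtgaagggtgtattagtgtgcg
mir-52: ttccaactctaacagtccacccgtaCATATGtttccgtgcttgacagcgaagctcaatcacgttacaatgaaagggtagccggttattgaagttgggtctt
mir-4936: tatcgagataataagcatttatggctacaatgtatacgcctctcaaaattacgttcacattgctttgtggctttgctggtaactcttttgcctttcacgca
mir-39, mir-40 and mir-41: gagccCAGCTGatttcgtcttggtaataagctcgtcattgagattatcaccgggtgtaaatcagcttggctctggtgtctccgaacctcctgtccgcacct
mir-77: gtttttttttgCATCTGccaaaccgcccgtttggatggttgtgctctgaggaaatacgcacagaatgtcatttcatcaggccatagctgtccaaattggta
mir-58.1: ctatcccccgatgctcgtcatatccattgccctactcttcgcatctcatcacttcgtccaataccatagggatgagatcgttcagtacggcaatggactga
mir-8196.1: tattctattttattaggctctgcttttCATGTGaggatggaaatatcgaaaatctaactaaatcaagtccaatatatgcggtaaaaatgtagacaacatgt
lin-4: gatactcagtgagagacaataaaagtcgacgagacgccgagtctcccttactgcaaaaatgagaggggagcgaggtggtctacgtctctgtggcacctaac

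The first question was how many microRNA genes had a summit, and whether that exceeded what the lists give anywhere in the genome. At the gene, 28 of 261 (10.7%, 95% Wilson interval 7.53 to 15.1) had a pooled summit, while 3.21% of all nuclear windows of 495 bp, the length of the median microRNA gene with 200 bp on each side, held one. In the list of replicate 1 the count was 46 (17.6%), with 9.33% of windows. In that of replicate 2 it was 57 (21.8%), with 10.6% of windows. All 3 lists had a summit at 19 genes (7.28%, 4.71 to 11.1), while 1.56% of windows did. The intervals cover the sampling of genes only and run narrow, because neighbours share summits: the 28 genes lay in 22 of 227 loci (9.69%, 6.49 to 14.2). In each list the share of microRNA genes was above that of the windows, and the difference was not tested.

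Upstream, the share of microRNA genes lay closer to the background. Within 1000 bp before the 5′ end, 25 microRNA genes (9.58%, 6.57 to 13.8) had a pooled summit, while 6.36% of all 1000 bp windows and 7.49% of 19973 protein-coding genes did. The count was 64 (24.5%) in replicate 1, with 18.1% of windows, and 77 (29.5%) in replicate 2, with 20.4% of windows. All 3 lists had an upstream summit at 17 genes (6.51%, 4.11 to 10.2), while 3.65% of windows and 4.35% of protein-coding genes did, and the interval holds the protein-coding share. Measured within 200 bp to either side of the 5′ end, 22 microRNA genes (8.43%, 5.63 to 12.4) had a pooled summit, while 3.51% of protein-coding genes did. In all 3 lists the count there was 13 (4.98%, 2.93 to 8.33), while 1.55% of protein-coding genes did.

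The list the authors thresholded by the irreproducible discovery rate (IDR), which asks how alike peaks rank between replicates, held 230 nuclear peaks. Among the microRNA genes it held a summit at the gene of mir-51 and mir-52 (0.766%, with 0.113% of windows). Upstream it held one of mir-51 (0.383%, with 0.227% of windows). Both are members of the same family on chromosome IV, at separate loci.

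The share of microRNA genes found was below the shares of the other small RNA classes. A pooled summit lay within 200 bp of 10.7% of microRNA genes, 60.6% of 612 tRNA genes, 27.2% of 346 snoRNA genes and 31.0% of 129 snRNA genes. In all 3 lists the shares were 7.28% of microRNA genes, 50.8% of tRNA, 20.8% of snoRNA and 23.3% of snRNA genes. The median pooled signal of the found genes was 34.6 for microRNA, 49.3 for tRNA, 51.0 for snoRNA and 39.4 for snRNA genes. These differences were not tested. The treatment of reads with several matching places, not given in the sources used here, bears on repeated genes such as tRNA genes.

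The mir-51 family held the strongest sites. mir-51 (chrIV:11026013-11026112, minus strand, intergenic) had a signal of 52.3 in replicate 1 and 39.8 in replicate 2 (46.1 ± 8.86), and its pooled signal of 94.1 ranked 34 of 6661. The summit lay 91 bp upstream of the 5′ end, and it ranked 50 in replicate 1 and 48 in replicate 2. mir-52 (chrIV:14034008-14034107, plus strand, intergenic) had 41.6 and 35.7 (38.7 ± 4.20) and a pooled signal of 75.9, rank 86. Its summit lay inside the gene, 49 bp past the 5′ end. Both genes were far above the list medians in each replicate, and replicate 1 was the higher in both.

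mir-53 lies near mir-51 on the same strand, farther than the 1000 bp that defines a cluster below. It had no summit within 200 bp, but an upstream summit in all 3 lists, with 25.1 and 16.0 (20.6 ± 6.45) and a pooled 31.8 at 576 bp. mir-54, mir-55 and mir-56 form a cluster on X inside an intron of F09A5.3, on the opposite strand. mir-55 and mir-56 shared a summit with 22.3 and 12.8 (17.6 ± 6.77), and its pooled signal of 26.6 ranked 6296, near the bottom of the list. F09A5.15, a microRNA gene that overlaps mir-55 on the other strand, had the same summit. The pooled summit lay between the annotated 5p and 3p products of mir-56, and outside those of mir-55 and F09A5.15. With a limit of 100 bp, of these 3 genes only mir-56 was found in all 3 lists. mir-54 had 18.5 in replicate 1 and 12.8 in replicate 2, while the nearest pooled summit lay 256 bp away. Within 200 bp, 4 of the 6 family members were thus found in all 3 lists, through 3 summits, while 1.56% of windows were.

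In the mir-35 family, 5 of 8 members had a pooled summit at the gene and 4 had one in all 3 lists, while 3.21% and 1.56% of windows did. The genes mir-35 to mir-41 lie close together on chromosome II in an intron of Y62F5A.9, on the opposite strand, as the largest cluster (7 genes). The strongest pooled summit (48.5, rank 401) lay within 200 bp of mir-38 to mir-41 and inside mir-39. A second one, nearly as strong (47.6, rank 420), lay inside mir-41 and within 200 bp of mir-40. For mir-39, mir-40 and mir-41 the signals were 26.8 in replicate 1 and 22.6 in replicate 2 (24.7 ± 2.99). These come from different positions. The replicate 1 summit lay 3 bp past the 5′ end of mir-41, and the replicate 2 summit lay inside mir-39, 68 bp past its 5′ end. mir-38 had the pooled summit and 22.6 in replicate 2 but none in replicate 1. mir-35 and mir-36 had only a weak summit of 13.7 in replicate 1 at the gene. In the pooled list both summits of the cluster thus lay at its 3′ members. The upstream window of mir-35, before the cluster, held 13.7 in replicate 1, 22.0 in replicate 2 and no pooled summit.

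The last member, mir-42, heads a separate cluster with mir-43 and mir-44 on the same chromosome. Its summit, 112 bp upstream, had 21.8 in replicate 1 and 11.6 in replicate 2 (16.7 ± 7.28) and a pooled signal of 33.4, rank 2162. The same pooled summit was the upstream summit of mir-43, at 211 bp, and of mir-44, at 324 bp. For these windows the highest replicate signals were 21.8 and 14.3 (18.1 ± 5.34).

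The other genes found at the gene in all 3 lists were scattered and mostly single. mir-4936 (chrIII:3249151-3249260, intergenic) had 30.5 and 29.0 (29.7 ± 1.08) and a pooled 55.2, rank 260, with its summit inside the gene. That summit also lay in the upstream window of the protein-coding gene nduf-9, 633 bp from its 5′ end. mir-77 (chrII:12519268-12519367, intergenic) had 28.1 and 20.7 (24.4 ± 5.28) and a pooled 43.8, its pooled summit also inside the gene. The strongest replicate summits lay outside it. That of replicate 1 was past the 3′ end, 152 bp from the 5′ end, and that of replicate 2 was 111 bp upstream. The pooled summit also lay in the upstream windows of the protein-coding genes srh-70 and ceh-99. A snoRNA gene, T21B4.20, lies within 200 bp of that pooled summit. Among tRNA, snoRNA, snRNA and rRNA genes, it is the only one so near the strongest pooled summit at a microRNA gene. Genes annotated as ncRNA were not counted there. Some lie within 200 bp of other summits, among them F36H1.17 at mir-51, Y37A1B.330 at mir-52 and Y67D8A.6 at mir-58.1. mir-2214, in an intron of B0361.11, had 25.5 and 20.7 (23.1 ± 3.43) and a pooled 40.7, 21 bp upstream.

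mir-58.1, in an intron of phkb-1 and on its strand, had 21.6 and 19.5 (20.6 ± 1.44) and a pooled 41.4, inside the gene. Of the other 7 mir-58 family members in the annotation, only mir-80 had a pooled summit, 817 bp upstream, with a pooled 32.1. The replicate signals of mir-80 were 15.5 and 15.5, but the strongest replicate 1 summit lay at 247 bp, so the like values come from different positions. Past the 3′ end of the gene lay the strongest pooled summits of mir-4935, mir-8196.1, mir-5552 and mir-4813, between 181 and 277 bp from the 5′ end. Their pooled signals were 34.6, 38.4, 29.3 and 37.7. The replicate 1 and replicate 2 signals were 15.0 and 16.6 at mir-8196.1, and 15.7 and 24.1 at mir-4813. At mir-5552 they were 12.2 and 15.1, and its replicate 1 signal was near the lowest of that list, 12.1. mir-4813 is the only member with a pooled summit of 11 that overlap an exon of a protein-coding gene, here idhg-1. In replicate 2, 3 of the 11 had a summit at the gene and 5 in either window. A weaker pooled summit (31.5, rank 2922) lay inside mir-4935. In mir-4935 the strongest replicate 2 summit (25.1) lay on the other side of the gene from the pooled one, with 18.6 in replicate 1.

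The other 2 sites found at the gene in all 3 lists were weaker than most of those above. mir-4806, in an intron of ras-1, had 15.2 and 17.3 (16.3 ± 1.51) and a pooled 31.0, rank 3129. mir-5549 had 18.2 and 14.5 (16.3 ± 2.62) and a pooled 27.2, near the lowest signal of the pooled list, 26.3. Its pooled summit also lay in the upstream windows of the protein-coding genes eef-1A.1 and rfc-4. The −log10 q that the authors gave the pooled peaks was 1.13 at mir-51 and mir-52 and 1.07 at mir-4936. It was 0.898 at mir-39 and 0.0214 at mir-55.

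**Figure D1:**
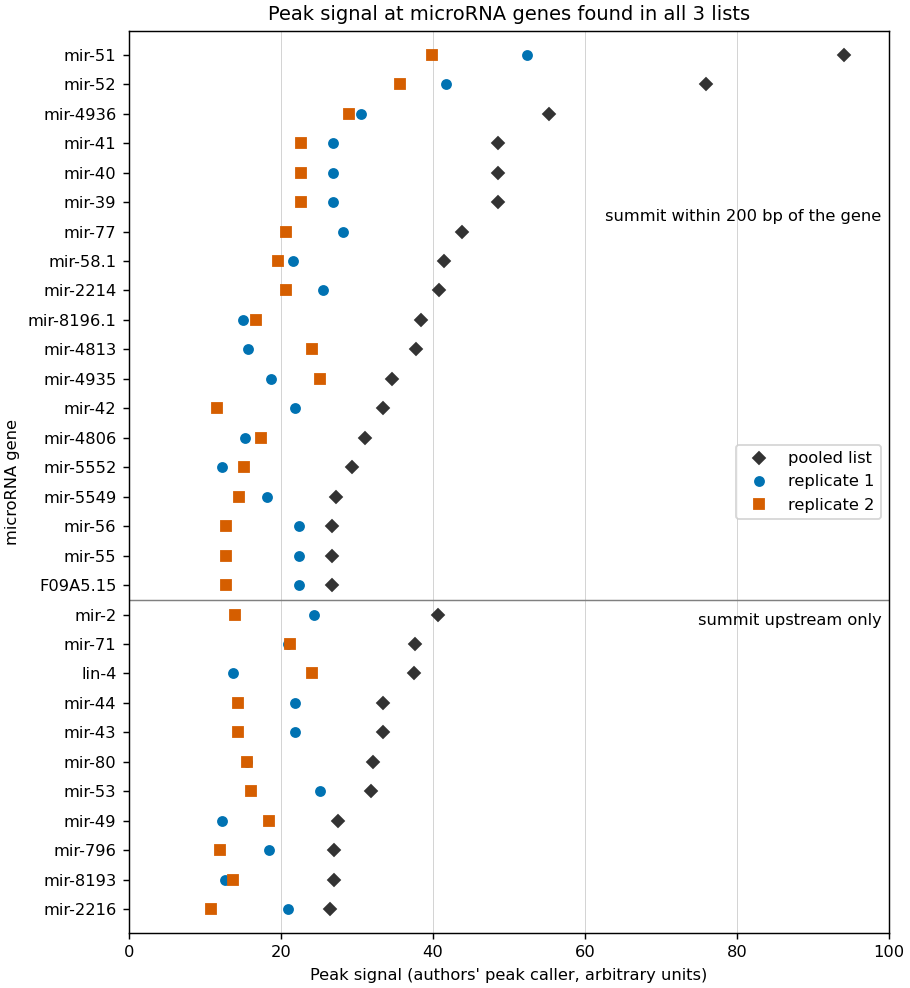
Peak signal (horizontal axis, linear, in the peak caller's units) of the 30 microRNA genes found in all 3 lists, at the gene (upper rows) or upstream only (lower rows), sorted by pooled signal. Diamonds are the pooled list, circles replicate 1 and squares replicate 2; mir-51, at 94.1, and mir-52, at 75.9, stand apart, and genes that share a summit repeat its values.

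Upstream only, 11 genes were found in all 3 lists. lin-4 (chrII:5902254-5902347), inside F59G1.4 on its strand, had 13.7 in replicate 1 and 24.0 in replicate 2 (18.9 ± 7.32). Its pooled signal was 37.4, rank 1228, at 472 bp upstream. Replicate 1 lay below its list median and replicate 2 well above its own. A weaker pooled summit (29.9) lay nearer, 251 bp from the gene. The other member of its family, mir-237, had no summit in either window of any list.

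mir-2 and mir-71 lie in introns of ppfr-1, a regulatory subunit gene of protein phosphatase 4, on its strand. mir-71, known for its effect on lifespan, had 21.0 and 21.2 (21.1 ± 0.168) and a pooled 37.6 at 359 bp. The strongest replicate 1 summit lay at 148 bp and that of replicate 2 at 330 bp, so these like values come from different positions. mir-2 had 24.4 and 14.0 (19.2 ± 7.37) and a pooled 40.6 at 229 bp, just outside the window at the gene. The other upstream sites were mir-49, mir-796, mir-8193 and mir-2216, with pooled signals of 27.4, 27.0, 27.0 and 26.4, all near the lowest of the list. Their replicate signals lay between 10.8 and 20.9, on both sides of the list medians.

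The let-7 family, whose best known member drives the step from larva to adult, had no pooled summit in either window for any of its 7 members. The interval for 7 genes, 0 to 35.4%, holds the shares of windows, 3.21% at the gene and 6.36% upstream. In replicate 1, 4 of the 7 (57.1%) had an upstream summit, while 18.1% of windows and 24.5% of all microRNA genes did. The difference was not tested. let-7 itself had an upstream summit of 14.4 in replicate 1 alone. mir-241 had 24.3 upstream in replicate 1 alone, the highest value of the family. mir-794 had 15.0 in replicate 1 and 13.5 in replicate 2 upstream, and mir-795 had 13.4 in replicate 1. mir-48, mir-84 and mir-793 had none, though a pooled summit of 29.9 lay 248 bp from mir-48. lsy-6, which sets the left-right difference of the ASE taste neurons, had only 10.3 upstream in replicate 2, near the lowest values of that list.

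Of the other families listed, a pooled summit at the gene was found for 1 of 4 in mir-2 (mir-250), 1 of 4 in mir-44 (mir-61) and 1 of 2 in mir-232 (mir-357). Each of these had a summit in at most 1 replicate list at the gene. The mir-72 family had 1 member, mir-71, with an upstream pooled summit. The mir-64, mir-46, mir-75, mir-63, mir-238, mir-240, mir-251, mir-1, mir-124 and mir-34 lists had no pooled summit in either window.

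The 3 genes of highest pooled signal found in fewer than 3 lists, taking the best window of each gene, were mir-38 (above), mir-1833 and mir-8194. mir-1833, in an intron of qars-1, had a pooled 37.4 and 22.7 in replicate 1 and no replicate 2 summit at the gene. mir-8194 had a pooled 30.4 and 18.8 in replicate 1 upstream. Just inside the 200 bp limit were mir-38, mir-8200 and mir-61, with pooled summits at 120, 187 and 192 bp. Just outside were mir-43, mir-37 and mir-2, at 211, 217 and 229 bp. Slightly farther, at 232 bp from mir-45, lay a strong pooled summit of 62.4. At the gene, mir-45 had 24.9 in replicate 2 alone.

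The replicates agreed on part of the genes. At the gene, 24 were found in both replicate lists, 52.2% of those of replicate 1 and 42.1% of those of replicate 2. Of the 28 with a pooled summit, 19 were found in both replicates, 5 in replicate 1 alone, 3 in replicate 2 alone and 1 in neither. Replicate 1 had the higher signal in 14 of the 19, and its list median is also the higher. Upstream, 30 genes were found in both, 46.9% of those of replicate 1 and 39.0% of those of replicate 2. In any list at all, 80 genes had a summit at the gene and 111 upstream. When each replicate list was reduced to its 6661 strongest peaks, the length of the pooled list, 10 of the 19 genes were still found at the gene, among them mir-51, mir-52, mir-4936, mir-77, mir-58.1 and mir-39 to mir-41. Upstream, 4 of 17 were then found, mir-51, mir-53, mir-71 and F09A5.15, and lin-4 was not.

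Clustered genes were compared with single ones. A cluster was 2 or more microRNA genes on a strand with gaps of at most 1000 bp, which gave 52 genes in 18 clusters and 209 single genes. A pooled summit at the gene was found for 11 clustered genes (21.2%, 12.2 to 34.0) and 17 single genes (8.13%, 5.14 to 12.6). The 11 genes had 6 pooled summits between them, in 5 of 18 clusters (27.8%, 12.5 to 50.9), and a cluster spans more sequence than a gene. In all 3 lists the counts were 6 clustered (11.5%) and 13 single genes (6.22%). Median pooled signal was 27.8 for the clustered and 37.4 for the single genes found. The clustered share is thus higher by genes, the intervals overlap, and the difference was not tested.

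Intronic genes, inside a protein-coding gene but off its exons, numbered 97, of which 67 lay on the strand of their host and 30 on the other. Intergenic genes numbered 153. A pooled summit at the gene was found for 16 intronic genes (16.5%, 10.4 to 25.1) and 11 intergenic genes (7.19%, 4.06 to 12.4), and in all 3 lists for 11 (11.3%) and 7 (4.58%). Most of that gap came from the opposite strand, with 9 of 30 (30.0%, 16.7 to 47.9). The strongest summits of those 9 genes were 4, and all their pooled summits within 200 bp were 6, in the mir-35, mir-55 and mir-357 clusters and at mir-4935. On the host strand it was 7 of 67 (10.4%, 5.15 to 20.0). Among single genes, 8 of 78 intronic (10.3%, 5.29 to 18.9) and 8 of 121 intergenic (6.61%, 3.39 to 12.5) were found, and of these F09A5.15 still shares its summit with mir-55 and mir-56. When genes in an intron on the opposite strand were counted as intergenic, the order turned round, with 10.4% of intronic (7 of 67) and 10.9% of intergenic genes (20 of 183). Upstream the shares were 12.4% of intronic and 8.50% of intergenic genes. None of these differences was tested.

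**Figure D2:**
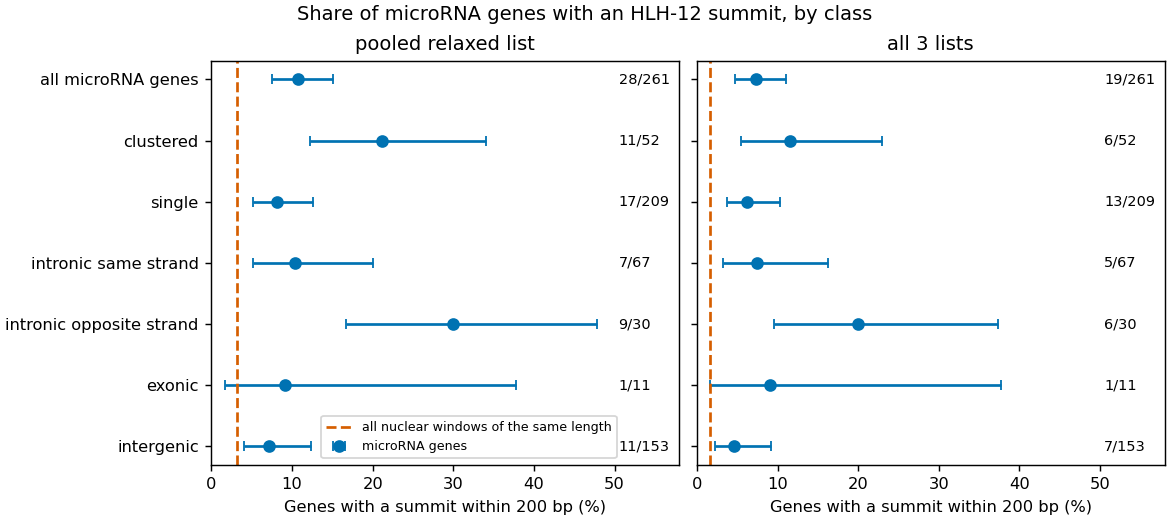
Share of microRNA genes with a summit within 200 bp (horizontal axis, percent) by class, in the pooled list (left) and in all 3 lists (right). Points are shares with 95% Wilson intervals, numbers at the right are genes found of all genes in the class, and the dashed line is the share of all nuclear windows of 495 bp (3.21% and 1.56%); the exonic class has 11 genes and 1 found.

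A microRNA inside a host on the same strand may be made from the host's transcript. The 67 such genes had 61 hosts, of which 4 (6.56%) had a pooled summit within 1000 bp upstream of the host and 3 had one in all 3 lists, while 7.49% and 4.35% of protein-coding genes did.

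Summits lay on both sides of the genes. Of the 28 genes with a pooled summit within 200 bp, the strongest lay inside the gene in 8, upstream in 8 and past the 3′ end in 12. Any pooled summit lay inside 10 of them, mir-41 and mir-4935 being the others. In 8 of the 28 the strongest summit also lay in the upstream window of a protein-coding gene, so it cannot be assigned to the microRNA gene by position. Among these were mir-4936, mir-77, mir-5549 and mir-4932. By chromosome, 1 of 33 genes on I, 7 of 49 on II, 5 of 27 on III, 4 of 50 on IV, 7 of 28 on V and 4 of 74 on X (5.41%) were found at the gene in the pooled list. In that list X, which holds the most microRNA genes, had the lowest share after I. The order differed elsewhere. At the gene in replicate 2, X had the highest share (22 of 74, 29.7%) and V the lowest (14.3%). Upstream in the pooled list, IV had the lowest share (4.0%), and I had 15.2%. The share of windows was not worked out per chromosome, and these differences were not tested.

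**Figure D3:**
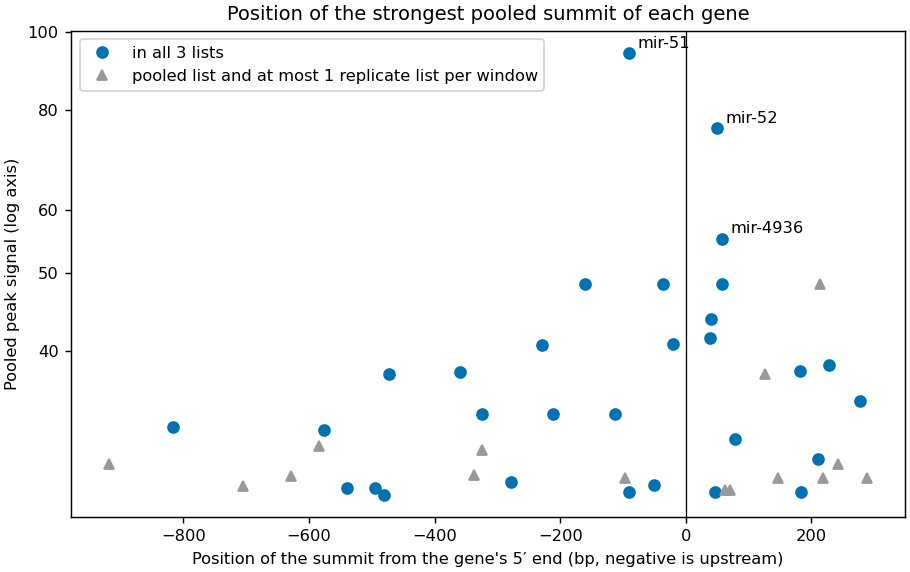
Position of the strongest pooled summit of each found gene from its annotated 5′ end (horizontal axis, bp, negative upstream) and its pooled signal (vertical axis, log scale). Circles are genes found in all 3 lists and triangles the others; mir-51 lies 91 bp upstream, mir-52 and mir-4936 lie inside the gene, and the upstream summits farthest from their gene are among the weaker ones.

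Signal at the genes was set against all peaks. The 24 pooled summits within 200 bp of a microRNA gene had a median signal of 34.0, and all 6661 nuclear peaks 30.6. Of the 24, 11 (45.8%) were above 35.3, the upper quartile of all peaks. The 23 upstream summits had a median of 29.9, and 6 (26.1%) were above that value. The upstream median lay slightly below that of all peaks.

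**Figure D4:**
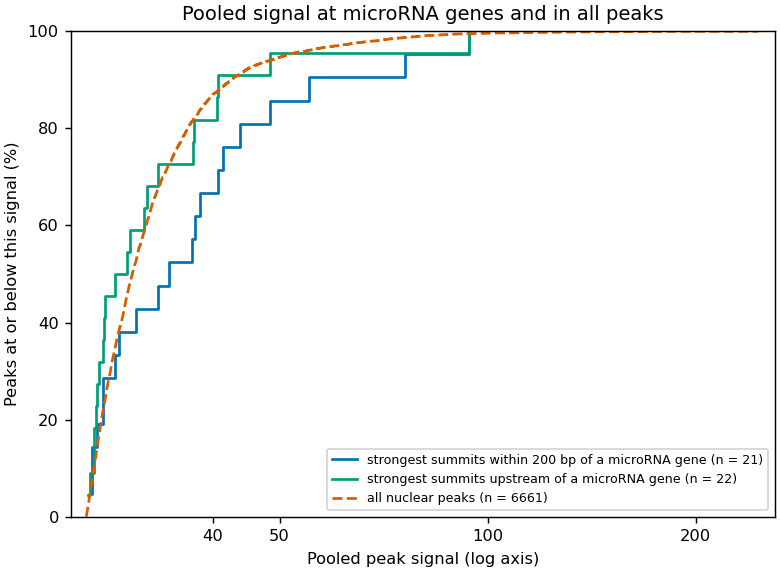
Cumulative share of peaks (vertical axis, percent) at or below a pooled signal (horizontal axis, log scale), for the strongest summit within 200 bp of each found microRNA gene, the strongest upstream summit and all 6661 nuclear peaks (dashed). Each summit is counted once; the curve at the genes runs to the right of that of all peaks above the middle of its range, and the upstream curve stays close to it.

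The share of these summits with an E-box was close to that of all summits of the list. CANNTG lay within 50 bp of 8 of 24 summits at the genes (33.3%, 18.0 to 53.3) and 7 of 23 upstream (30.4%, 15.6 to 50.9), while 32.6% of all 6661 pooled summits had it. CACATG, one form of the E-box, lay at 1 of 24 (4.17%), the mir-8196.1 site shown above, while 3.42% of all did. In promoters from 250 bp before to 50 after the 5′ end, CANNTG was in 69.7% of microRNA and 69.4% of protein-coding promoters, and CACATG in 7.28% and 9.97%. Motifs were searched on both strands.

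Since tRNA genes were found so often, the summits were also searched for GTTCGA, which forms the core of the B box, a promoter element inside tRNA genes. This motif and the comparison with tRNA sequences were chosen after the data were seen. It lay at 2 of the 24 summits at the genes (8.33%, 2.32 to 25.9), while 5.82% of all did. These were mir-51 and mir-4806, neither of which has an annotated tRNA gene within 200 bp of the summit. Upstream it lay at 2 of 23 (8.70%), mir-51 again and mir-8194. The motif, read on the minus strand, is in capitals below, in the same 101 bases of mir-51 and in chrII:12346252-12346352 of mir-4806.
mir-51: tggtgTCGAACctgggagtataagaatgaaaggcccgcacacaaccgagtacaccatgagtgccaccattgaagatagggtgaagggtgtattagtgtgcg
mir-4806: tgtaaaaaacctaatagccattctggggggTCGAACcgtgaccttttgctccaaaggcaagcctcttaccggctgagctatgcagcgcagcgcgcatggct

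The mir-4806 gene shared a run of 14 bases with an annotated tRNA gene, at bases 51 to 64 of its 83. The run, in capitals in the gene below, lies within the annotated 3p product. Of 6284 pooled summits away from tRNA genes, 52 (0.827%) had a shared run of at least 14 bases within 50 bp, and the median was 9 bases. At the mir-51 summit the longest shared run was 10 bases, which 35.3% of those summits reached.
mir-4806: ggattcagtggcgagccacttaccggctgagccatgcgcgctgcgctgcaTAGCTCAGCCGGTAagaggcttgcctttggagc

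Genes of the microRNA pathway were looked at for summits within 1000 bp upstream. Of 27 in the annotation, 2 (7.41%) had a pooled summit, 6 (22.2%) one in replicate 1, 4 (14.8%) one in replicate 2 and 1 (3.70%) one in all 3 lists, while 7.49% of protein-coding genes had a pooled summit and 4.35% one in all 3. alg-5, an Argonaute gene of the microRNA pathway, had 15.9 and 25.6 (20.7 ± 6.84) and a pooled 37.7, 683 bp upstream. lin-46, which acts downstream of lin-28 in developmental timing, had a pooled 36.8 and 29.1 in replicate 1 alone.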

How the data were processed

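The authors deposited ChIP-seq peak lists of HLH-12-GFP for each replicate, for both replicates pooled, and thresholded by IDR, on ce11 and ce10; the ce10 lists were not used. Signal per peak was deposited as the authors' peak caller wrote it, with no stated scaling. The deposited −log10 q value was used as a description, and the column for p-values held no values. The summit offset from the peak start was deposited with each peak. Per the authors' file listings, peak calling used a control. The aligner and caller were not given in the sources used here, and depth per sample is unknown.

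Summits on the 6 nuclear chromosomes were assigned to genes of Ensembl release 115 with Python 3.11.15, pandas 2.3.3, numpy 2.4.6 and scipy 1.17.1. Symbols and mature sequences came from RefSeq (WBcel235) through shared WormBase identifiers, which matched all 261 genes. Intervals are 95% Wilson. The windows were tested on simulated summits. With 1 group no test compared animals; p-values are not given. The background is the share of all windows of the same length, or of protein-coding genes, with a summit. Named are genes found in all 3 lists, the 3 strongest of the others, the let-7 and lin-4 families, lsy-6, and pathway genes found in all 3 lists. Members, families and the pathway list were chosen with earlier results of these data known. mir-1834 and ntl-1 were not matched. Alternatives were other distances, peak overlap, stricter lists, equal list lengths, each replicate left out, other cluster and host definitions, and exclusion of summits at other small RNA genes. Those small RNA genes were the tRNA, snoRNA, snRNA and rRNA genes.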

Additional observations from a re-analysis of the deposited data

How the results depend on the processing

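The counts depended on distance and on list length. Of 28 genes with a pooled summit at the gene, the count became 52 within 500 bp, 45 with any part of a peak, 16 with pooled peaks above the median signal and 2 with the IDR list. For all 3 lists (19 genes) it became 8 within 100 bp, 43 within 500 bp, 34 with any part of a peak, 2 with the IDR list and 10 with replicate lists as long as the pooled list. Upstream in the pooled list (25 genes) it became 42 within 2000 bp, 43 with any part of a peak, 12 with peaks above the median and 1 with the IDR list. Upstream in all 3 lists (17 genes) it became 10 within 500 bp, 36 within 2000 bp, 31 with any part of a peak, 11 with peaks above the median, 1 with the IDR list and 4 with equal list lengths. Wider windows also raise the background, so these counts are not comparable with the shares given for the narrower ones. With hosts on the same strand only, the intronic share was 10.4% in place of 16.5%, and the intergenic share 10.9% in place of 7.19%, which turns their order round. Leaving out 1 replicate gave 22 to 24 genes at the gene and 18 to 24 upstream. The other 26 settings moved a count by less than 1.5 times or kept a share within its interval, including removal of summits at other small RNA genes (28, 18, 25 and 17). Alternatives added after the data were seen were the hairpin in place of the gene, which changed no count, and replicate summits within 200 bp of the pooled summit, which left 19 genes at the gene and 14 upstream. That count took any replicate summit. The strongest ones, whose signals are given above, lay within 200 bp of the pooled summit for 18 of 19 genes at the gene. Upstream they did for 9 of 17. The causes of the changes in the counts were not tested. No paired analysis was possible because the labels give 1 group. With no depth in the files, a gene without a summit is one not detected at an unknown depth.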
